A study of Mus musculus with 4 samples.

Results

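The promoters of 32 mouse genes that encode writers, erasers and readers of histone acetylation were followed by ATAC-seq, which reads out accessible chromatin from the sites where a transposase can insert adapters. The genes were taken by name and comprised 14 writers, 14 erasers and 4 readers. A promoter peak was a called peak whose interval came within 1 kb of an annotated protein-coding start site (GENCODE M21, mouse build mm10). By this definition the 32 genes had 35 promoter peaks, among 16368 promoter peaks and 128055 peaks in all. Each of the 32 genes had at least 1 promoter peak, and Hdac7, Sirt1 and Brd3 had 2 each.

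The cells were mesenchymal stem cells (MSCs) grown out of bone from wild-type male mice aged 3 to 5 months, a sorted primary population rather than a clonal line. They were sorted as Sca-1+ CD140a+ cells lacking CD45 and Ter-119. The hypoxia group (2% O2) and the normoxia group, shifted to 21% O2 for 7 days, had 2 libraries each, and no allele, transgene or drug distinguished the groups. The labels call the cells bone-marrow MSCs, number the libraries 1 and 2 within each group and do not tie them to animals, so the p-values measure only the spread between these libraries.

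Acetylation of lysines on histone tails neutralises their charge and marks active promoters and enhancers. Writers, the histone acetyltransferases, transfer the acetyl group from acetyl-CoA. Erasers remove it, either as zinc-dependent histone deacetylases (HDACs) or as sirtuins, which consume NAD+. Readers bind acetyl-lysine through a bromodomain and recruit transcription or remodelling complexes. Acetyl-CoA and NAD+ come from central metabolism, so these enzymes depend on the metabolic state of the cell.

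The library totals recovered from the files lay between 26680936 and 29965523 reads. Nuclear peaks held 49.2% and 53.2% of the total in hypoxia but 31.0% and 35.2% in normoxia, and mitochondrial peaks held 7.77% and 9.13% against 1.50% and 2.34%, and the part of these differences in the values below was not tested. In such bulk libraries, fewer cells with an open promoter and less signal in each cell cannot be told apart. All 8 MSC markers examined had a promoter peak, with a summed signal, as deposited, of 1512 and 1550 in hypoxia against 835 and 955 in normoxia. As a share of the signal in all peaks this was 0.0265% and 0.0249% against 0.0257% and 0.0254%. All peaks here include the mitochondrial peaks, whose share was higher in hypoxia. These percentages therefore do not show that the marker share of nuclear peaks was level between the groups. The mean values of the strongest MSC marker peaks lay between 25.1 and 424. Ly6a and Pdgfra encode Sca-1 and CD140a, for which the cells were sorted, and a weak Ly6a peak (log2 fold change -1.60) and the Cd44 peak (-0.43) were called lower in the test described below, while the strongest Ly6a peak (-0.18) and the Eng peak (0.73) were not called. The blood markers Ptprc, Spi1, Itgam, Cd3e and Gata1 had no promoter peak. Of 4 endothelial markers, Cdh5 had none and the strongest peaks of the other 3 had mean values of 9.61 to 41.0.

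The DNA in front of these genes was richer in G+C and CpG than that of protein-coding genes at large. The comparison windows were not limited to genes with a promoter peak, whereas every member had such a peak. Over whole promoter peaks the median G+C content was closer, at 55.3% in members and 52.1% in all promoter peaks. In the 200 bases before the main start site of each gene, the median G+C content was 66.5% over the 32 members and 56% over 21911 protein-coding genes, and the median number of CpG dinucleotides was 16.5 against 8. The GC box (GGGCGG, either strand) was found in 20 of 32 member windows (62.5%) and in 39.3% of all windows, and CCAAT in 11 (34.4%) and 31.7%. Of the cores of hypoxia-inducible factor sites, ACGTG stood in 4 (12.5%) and in 14.5% of all windows, and GCGTG in 11 (34.4%) and 29.2%. The E-box CACGTG, which contains ACGTG, was in 2 member windows (6.25%) and 5.72% of all, the NRF1 core CGCATGCG in 2 (6.25%) and 2.16%, the ETS site CCGGAAG in 3 (9.38%) and 7.69%, and the YY1 site ATGGCGG in 1 (3.12%) and 2.03%. No member window held TATAAA, which was in 9.16% of all windows, or the cyclic AMP response element TGACGTCA, which was in 1.93%.

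The windows of the writer, eraser and reader with the lowest and the highest fold change, outside the chromosome of Hdac3, are printed here so that their composition can be set beside the signal described below. Each ends directly before the most upstream start that any transcript of the gene has in its peak, was read from GRCm38.p6 (the assembly of mm10) on the strand of the gene, and has every match to the 10 motifs in capitals. For Kat2b and Ep300 that start lay 110 and 46 bases upstream of the main start site used for the counts above. The window of Sirt3, the lowest eraser, fell within an exon of its neighbour Psmd13 and is not shown, and that of Brd9 ends after 26 bases at an exon of Trip13.
Kat2b, lowest writer, plus strand, chr17:53566661-53566860: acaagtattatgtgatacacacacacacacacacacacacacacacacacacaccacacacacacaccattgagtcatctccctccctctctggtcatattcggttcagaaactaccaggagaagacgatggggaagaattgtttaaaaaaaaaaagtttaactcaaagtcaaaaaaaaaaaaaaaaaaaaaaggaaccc
Ep300, highest writer, plus strand, chr15:81585151-81585350: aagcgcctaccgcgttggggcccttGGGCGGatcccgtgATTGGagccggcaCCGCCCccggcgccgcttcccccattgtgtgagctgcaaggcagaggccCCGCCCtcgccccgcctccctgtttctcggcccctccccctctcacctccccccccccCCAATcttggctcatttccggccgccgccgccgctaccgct
Hdac5, highest eraser, minus strand, chr11:102230167-102230366: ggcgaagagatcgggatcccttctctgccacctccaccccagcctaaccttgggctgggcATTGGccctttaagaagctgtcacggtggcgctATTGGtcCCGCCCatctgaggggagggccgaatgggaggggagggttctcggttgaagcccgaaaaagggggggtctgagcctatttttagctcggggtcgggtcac
Brd9, lowest reader, plus strand, chr13:73937785-73937810: gccccaccctgacCCGGAAGcacttg
Brd3, highest reader, minus strand, chr2:27475687-27475886: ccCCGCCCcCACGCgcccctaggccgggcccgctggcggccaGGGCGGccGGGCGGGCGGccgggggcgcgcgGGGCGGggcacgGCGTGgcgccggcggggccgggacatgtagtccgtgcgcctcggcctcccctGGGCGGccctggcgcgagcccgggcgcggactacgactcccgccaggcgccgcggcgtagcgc
The printed Kat2b window held CA repeats, 2 CpG dinucleotides, a G+C content of 38% and none of the 10 motifs. The window before its main start site, used for the counts above, held 1 match to GCGTG and 1 to CCAAT. The Brd3 window held 37 CpG dinucleotides at a G+C content of 86.5%, with 6 GC boxes and 2 matches to GCGTG. The printed Ep300 window had 3 GC boxes and 2 CCAAT boxes, and the Hdac5 window had 1 and 2. Before the main start site of Ep300 there were 2 GC boxes, 1 CCAAT box and 1 YY1 site. These matches describe the letters and are not shown to be bound.

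The comparison asked how 7 days of high oxygen altered accessibility at these promoters. As deposited, the signal of a peak is its reads scaled by the library total and not divided by peak width. On this scale all 35 member peaks had their lower 2 values in normoxia, as had 59.5% of all peaks and 87.7% of all promoter peaks. The median log2 ratio of normoxia over hypoxia was -0.76 over the member peaks, -0.75 over promoter peaks and -0.44 over all peaks. With limma on these values, 29 of 35 member peaks were called lower at a false discovery rate (FDR) under 0.01, against 24.0% of all peaks and 63.2% of promoter peaks. The member and promoter medians were close to each other.

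**Figure D1:**
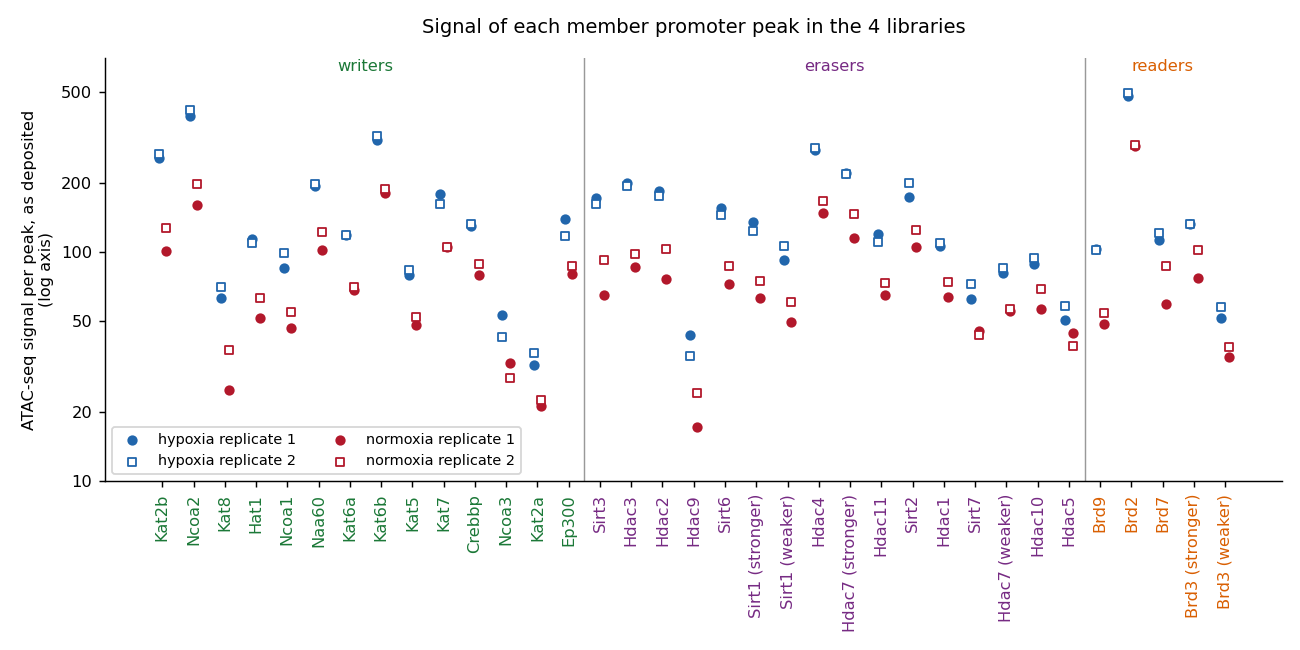
ATAC-seq signal as deposited (log axis) of the 35 member promoter peaks in each of the 4 libraries, ordered within writers, erasers and readers by fold change. Blue symbols are hypoxia and red symbols normoxia libraries, filled for replicate 1 and open for replicate 2, and in each peak both red symbols lie below both blue ones.

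For the main comparison the libraries were scaled by relative log expression (RLE) size factors, which set the median peak to about no change (-0.0040), and log2(value + 1) was tested with limma over all 128055 peaks with Benjamini-Hochberg adjustment. All fold changes from here on are on this scale, normoxia over hypoxia, and the library values given with them are as deposited. In this fit 5 of 35 member peaks (14.3%) were lower at an FDR under 0.01, those of Kat2b, Ncoa2, Sirt3, Hdac3 and Hdac2. The background was 4.57% of all peaks and 17.6% of promoter peaks, so the share of members was close to that of promoters. No member peak was called higher, against 1.77% of all peaks and 0.379% of promoter peaks. At an unadjusted p under 0.05, 19 member peaks were lower and 0 higher (edgeR also called 0 higher), where 16.8% of all peaks and 46.2% of promoter peaks were lower. The median log2 fold change of the members was -0.28, as it was for promoter peaks. After scaling, the groups did not overlap and normoxia was the lower in 29 of 35 member peaks, in 29.6% of all peaks and in 62.5% of promoter peaks. The calls depended on the scaling, since none of the 35 peaks was called by limma after cyclic loess (10 had an unadjusted p under 0.05), where the background was 1.31% of all peaks and 2.07% of promoter peaks. They also depended on both hypoxia libraries, since limma called 0 of 128055 peaks without replicate 1 or without replicate 2 (24119 and 24294 had an unadjusted p under 0.05). With the variance estimated by limma without trend and robust options, 0 peaks were called as well, and 29293 of all peaks and 8 of the members had an unadjusted p under 0.05. Without normoxia replicate 1 the calls were Kat2b, Ncoa2, Hdac3 and Brd2, and without normoxia replicate 2 there were 10.

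The writers included the member peaks that fell furthest. Kat2b encodes PCAF, an acetyltransferase of SAGA-type coactivator complexes, and its promoter peak (chr17:53565801-53570800) had values of 258 and 269 in hypoxia against 101 and 128 in normoxia. The hypoxia libraries were close together and well above either normoxia library. The log2 fold change was -0.73 ± 0.11 (SE), with an adjusted p of 7.39e-05 by limma. Ncoa2, also known as GRIP1, is a p160 coactivator of nuclear receptors, and its peak (chr1:13371201-13375100) had values of 395 and 416 in hypoxia against 160.4 and 199 in normoxia. Its log2 fold change was -0.70 ± 0.10 (SE), with an adjusted p of 3.00e-05 by limma. Per kilobase the Ncoa2 peak was the strongest of the 35, with a mean value of 75.0 per kb against 37.8 for Kat2b.

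The remaining 12 writer peaks did not pass, and their fold changes lay between -0.63 and -0.14. Kat8 (MOF), which acetylates histone H4 lysine 16, had values of 63.3 and 70.4 in hypoxia against 25.1 and 37.4 in normoxia. Its groups did not overlap and its log2 fold change was -0.63 ± 0.17 (SE), but normoxia replicate 1 was far below replicate 2 and the adjusted p by limma was 0.011. Hat1, which acetylates new histone H4 before it is deposited, had values of 114 and 109 in hypoxia against 51.3 and 63.1 in normoxia and a log2 fold change of -0.49 ± 0.14 (SE) (limma, adjusted p = 0.015). Naa60, which like Hat1 acts on free histone H4 and has a peak shared with Gm20695, stood at -0.32 ± 0.12 (SE).

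Ep300 and Crebbp, which encode the paired coactivators p300 and CBP that acetylate enhancer histones, were among the writers with the smallest differences. The Ep300 peak had values of 139 and 118 in hypoxia against 80.2 and 86.8 in normoxia, and its groups overlapped once the libraries were scaled, with a log2 fold change of -0.14 ± 0.13 (SE). The Crebbp peak had values of 130.2 and 133 in hypoxia against 79.5 and 88.8 in normoxia and a log2 fold change of -0.17 ± 0.13 (SE). Neither passed the test (limma, adjusted p = 0.52 and 0.39). The MYST-family enzymes other than Kat8 lay close to the promoter median, with -0.22 for Kat5 (TIP60), -0.29 for Kat6a, -0.28 for Kat6b and -0.21 for Kat7 (HBO1). Kat6b had the second strongest writer peak per kilobase (64.0 per kb), with values of 307 and 321 in hypoxia against 181 and 189 in normoxia and an adjusted p of 0.055 by limma. Kat2a (GCN5), the close relative of Kat2b in a peak shared with Hspb9, had the lowest mean value of all members, with values of 32.2 and 36.4 in hypoxia against 21.4 and 22.7 in normoxia and a log2 fold change of -0.15 ± 0.19 (SE). The other p160 coactivators stood at -0.38 for Ncoa1 and -0.16 for Ncoa3, and Ncoa3 overlapped between the scaled groups.

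Among the erasers, 3 of 16 peaks (18.8%) were called lower, close to the 17.6% of all promoter peaks, and 2 of them belonged to class I HDACs. Hdac3, the catalytic subunit of the NCoR and SMRT corepressor complexes, had values of 201 and 194 in hypoxia against 85.8 and 97.8 in normoxia and shared its peak with a start site of Rell2. Its log2 fold change was -0.62 ± 0.12 (SE) (limma, adjusted p = 6.37e-04), and the groups were far apart. Hdac2, a catalytic subunit of the SIN3, NuRD and CoREST complexes, had values of 185 and 176 in hypoxia against 76.1 and 103 in normoxia. Its log2 fold change was -0.54 ± 0.13 (SE) (limma, adjusted p = 0.004), with a wider gap between the normoxia than between the hypoxia libraries. Hdac1, its partner in the same complexes, had values of 107 and 110.2 in hypoxia against 63.7 and 74.1 in normoxia and a log2 fold change of -0.18 ± 0.13 (SE), which did not pass the test (limma, adjusted p = 0.4).

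Sirt3, a deacetylase of mitochondrial proteins, had values of 173 and 162 in hypoxia against 64.8 and 92.1 in normoxia. The peak (chr7:140880701-140882900) also covers a start site of Psmd13, a proteasome subunit transcribed in the other direction, so its signal cannot be assigned to Sirt3 alone. Its log2 fold change was -0.63 ± 0.13 (SE) (limma, adjusted p = 0.0016), the lowest among the erasers. The nuclear sirtuins Sirt1 and Sirt6, which deacetylate histone H3 and transcription factors, missed the threshold. The stronger Sirt1 peak had values of 135 and 124 in hypoxia against 63.0 and 74.8 in normoxia and a log2 fold change of -0.43 ± 0.13 (SE) (limma, adjusted p = 0.025), and the weaker peak stood at -0.37. Sirt6 had values of 155 and 146 in hypoxia against 72.3 and 87.4 in normoxia and a log2 fold change of -0.44 ± 0.13 (SE) (limma, adjusted p = 0.019), in a peak shared with Ankrd24. The mainly cytoplasmic Sirt2, in a peak shared with Nfkbib, stood at -0.22 and the nucleolar Sirt7 at -0.12, where the scaled groups overlapped.

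The class IIa HDACs, which shuttle between nucleus and cytoplasm, differed among themselves. Hdac4, whose peak had the highest mean value of the erasers, stood at 279 and 286 in hypoxia against 149 and 168 in normoxia, a log2 fold change of -0.36 ± 0.11 (SE) (limma, adjusted p = 0.02). Hdac5 had values of 50.6 and 58.5 in hypoxia against 44.6 and 39.0 in normoxia. Its libraries overlapped after scaling and its log2 fold change of 0.09 ± 0.16 (SE) was the only positive value among the 35 (limma, adjusted p = 0.75). Hdac7 stood at -0.28 in its stronger and -0.09 in its weaker peak. The only promoter peak of Hdac9 was weak and lay at a start site inside the gene, far from its 5' end. It had values of 43.5 and 35.4 in hypoxia against 17.2 and 24.4 in normoxia. The log2 fold change was -0.44 ± 0.20 (SE), with an adjusted p of 0.14 by limma. Hdac10, a polyamine deacetylase, and Hdac11, the class IV enzyme, stood at -0.08 and -0.26.

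None of the 5 reader peaks was called, and that of Brd2 was shared with H2-DMa. Brd2, a BET protein that binds acetylated histone H4 at active genes, had the highest mean value of all members, with 482 and 496 in hypoxia against 290.1 and 295 in normoxia. The replicates of each group were close together and did not overlap with the other group, and the log2 fold change was -0.26 ± 0.09 (SE) (limma, adjusted p = 0.05). That peak was also the widest, at 8200 bp, and held 47.7 per kb. Brd3, its BET relative, had values of 133 and 133 in hypoxia against 77.2 and 102 in normoxia in its stronger peak, with a log2 fold change of -0.10 ± 0.13 (SE) and overlapping groups after scaling. Brd9, a subunit of the non-canonical BAF remodelling complex, had values of 103 and 103 in hypoxia against 48.3 and 54.4 in normoxia and a log2 fold change of -0.52 ± 0.14 (SE), just outside the threshold (limma, adjusted p = 0.011), in a peak shared with Trip13. Brd7, a subunit of the PBAF complex, had values of 113 and 121 in hypoxia against 59.6 and 87.1 in normoxia. Normoxia replicate 2 of Brd7 lay well above replicate 1, and its log2 fold change was -0.22 ± 0.14 (SE).

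The medians of the 3 classes were close to each other. The median log2 fold change was -0.29 over 14 writer peaks, -0.32 over 16 eraser peaks and -0.22 over 5 reader peaks. The median scaled log2 level of the writers was 6.79 and 6.60 in hypoxia against 6.53 and 6.48 in normoxia, and that of the erasers was 6.82 and 6.59 against 6.33 and 6.41. The readers stood at 6.65 and 6.64 in hypoxia against 6.22 and 6.63 in normoxia, so that normoxia replicate 2 nearly met the hypoxia libraries. The writer median exceeded the eraser median by 0.03, against a spread between replicates (pooled SD) of 0.068, and the reader median exceeded it by 0.10, against 0.20. Both differences were thus smaller than the spread, and that between writers and erasers turned in direction with other scalings and without normoxia replicate 1. Within the erasers, the median was -0.27 over 10 HDAC peaks and -0.40 over 6 sirtuin peaks. Their ranges overlapped, from -0.62 to 0.09 and from -0.63 to -0.12. Of the HDAC peaks 20% and of the sirtuin peaks 16.7% were called lower, beside 17.6% of promoter peaks. No spread between replicates was computed for this split, and some sirtuin peaks were shared with other genes.

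**Figure D2:**
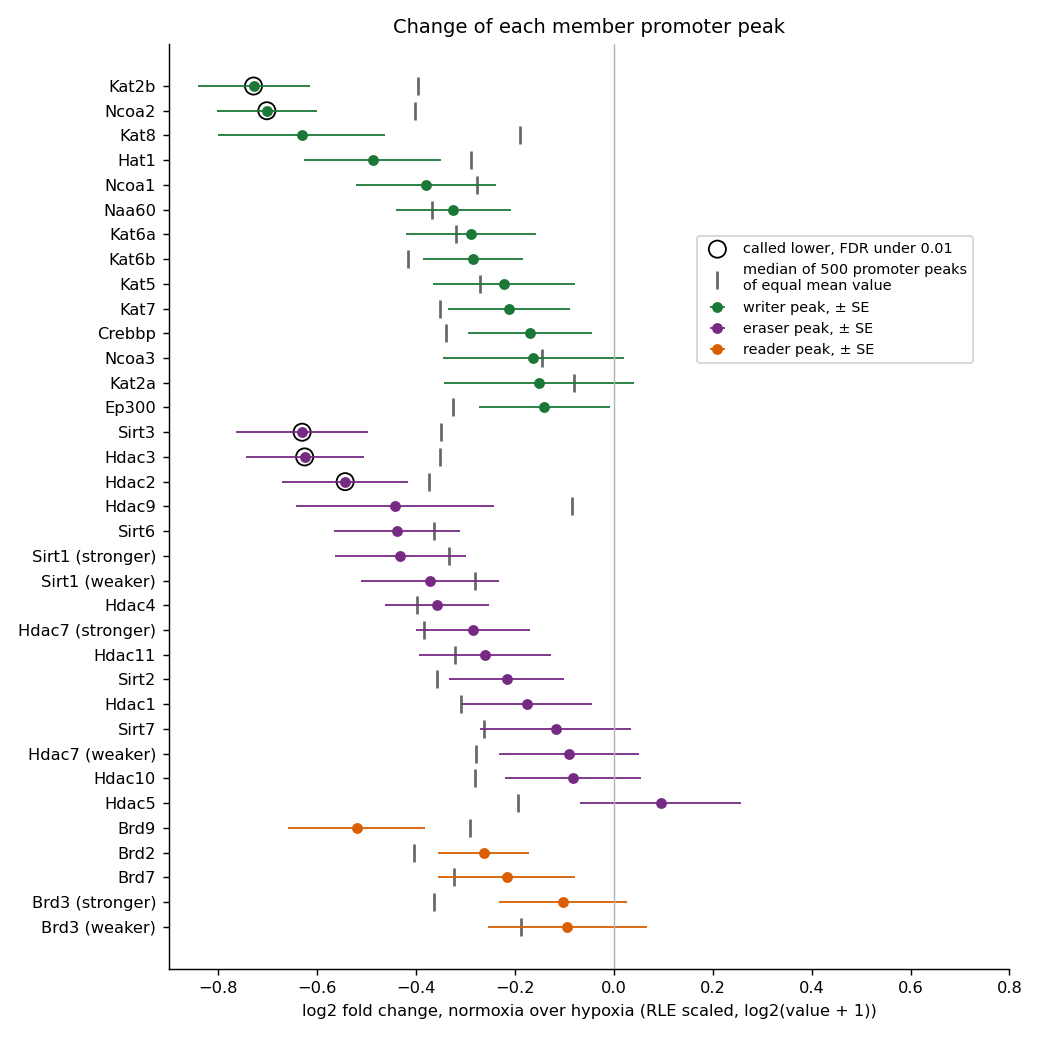
Log2 fold change of normoxia over hypoxia (RLE scaled, log2(value + 1)) with its SE for each member promoter peak, by class. Rings mark the 5 peaks called lower at an FDR under 0.01 and grey ticks the median of the 500 promoter peaks nearest in mean value. The ranges of writers, erasers and readers overlap, and only Hdac5 lies above 0.

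Fold changes at promoters moved with peak strength, so each member peak was set beside the 500 promoter peaks of other genes nearest to it in mean log2 value. By deciles of promoter peaks ordered by mean value, the weakest decile had a median log2 fold change of -0.64 with 5.38% called lower, and from there on the median went from 0.11 in the second decile to -0.40 in the strongest, and the share called lower from 2.08% to 53.5%. The median value was 95.1 in member peaks and 67.7 in promoter peaks, and all 35 member peaks lay in the third decile or above. Against their matched peaks, whose median was -0.32, the members had a median gap of 0.04, with 15 of 35 below their matched median. The gap was 0.01 for writers, 0.05 for erasers and 0.11 for readers. Of the matched peaks 22.7% were called lower on average, compared with 14.3% of the members. The spread of the median gap between replicates was 0.033, and without normoxia replicate 1 it was -0.0072.

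Individual members differed from their matched medians in both directions, most of them within the spread of the matched peaks. The gap was -0.44 for Kat8, -0.36 for Hdac9, -0.33 for Kat2b, -0.30 for Ncoa2, -0.28 for Sirt3 and -0.27 for Hdac3. Only 2.2% of the matched peaks had a lower fold change than Ncoa2, and 3.2% a lower one than Kat2b. At the other end the gap was 0.29 for Hdac5, 0.26 for the stronger Brd3 peak and 0.20 for Hdac10. It was 0.19 for the weaker Hdac7 peak, 0.18 for Ep300 and 0.17 for Crebbp. The peaks at this end stood at percentiles 78 to 91.0 of their matched peaks, and Hdac9 at 12.2. The matched peaks also resembled the members in width (median 2800 bp against 2700 bp), while the G+C content of the members was higher, at a median of 55.3% against 52.2%. The part of base composition in the gaps was not tested. The peak caller had assigned all 35 member peaks to both groups, whereas 6.41% of promoter peaks and 0.011% of the matched peaks were assigned to hypoxia only.

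**Figure D3:**
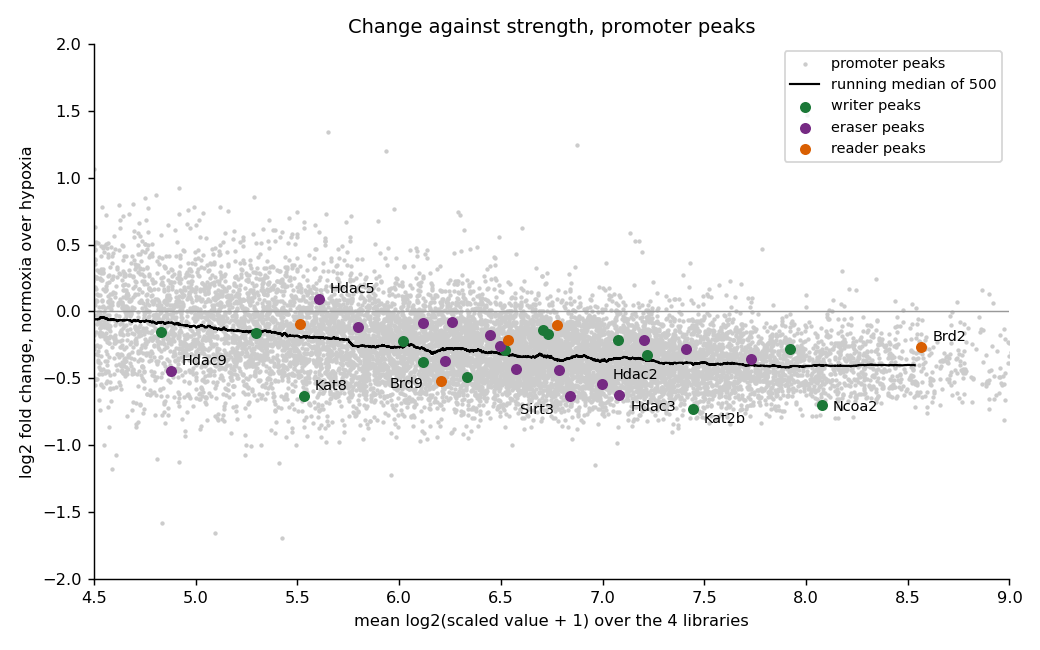
Log2 fold change against mean log2(scaled value + 1) for promoter peaks (grey), with their running median (black line) and the member peaks in colour. The axes hold 12393 of 16368 promoter peaks. Members lie on both sides of the falling median line, with Kat2b, Ncoa2, Kat8 and Sirt3 below it and Hdac5 above.

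Related genes were next compared within each library, as the difference of their scaled log2(value + 1), in which the factor of the library nearly cancels but the trend with peak strength does not. These pairs were chosen after their values had been seen, and the ratios are given as descriptions. The log2 ratio of the Kat2b to the Kat2a signal was 2.96 and 2.85 in hypoxia against 2.20 and 2.45 in normoxia, a fall of 0.58 that left the groups apart. That of Hdac2 to Hdac1 was 0.79 and 0.67 in hypoxia against 0.25 and 0.48 in normoxia, and that of Ncoa2 to Ncoa1 was 2.20 and 2.05 in hypoxia against 1.76 and 1.84 in normoxia. Both ratios were lower in each normoxia than in each hypoxia library. The ratio of Hdac4 to Hdac5 was 2.44 and 2.27 in hypoxia against 1.72 and 2.08 in normoxia, again without overlap. Of the 10 pairs, Hdac10 to Hdac11 alone was higher in both normoxia libraries, by 0.18. After cyclic loess the differences between groups were -0.22 for Kat2b to Kat2a, -0.30 for Hdac2 to Hdac1, -0.09 for Ncoa2 to Ncoa1, -0.19 for Hdac4 to Hdac5 and 0.15 for Hdac10 to Hdac11. The medians of the matched peaks differed by -0.32, -0.07, -0.12, -0.20 and 0.04 in the same pairs. By contrast, the ratio of Kat6b to Kat6a was 1.37 and 1.43 in hypoxia against 1.39 and 1.41 in normoxia, and that of Crebbp to Ep300 was -0.10 and 0.17 in hypoxia against -0.01 and 0.03 in normoxia. These 2 ratios overlapped between the groups, with differences of 0.0043 and -0.03. Unequal change within a pair does not say which of the 2 promoters moved.

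**Figure D4:**
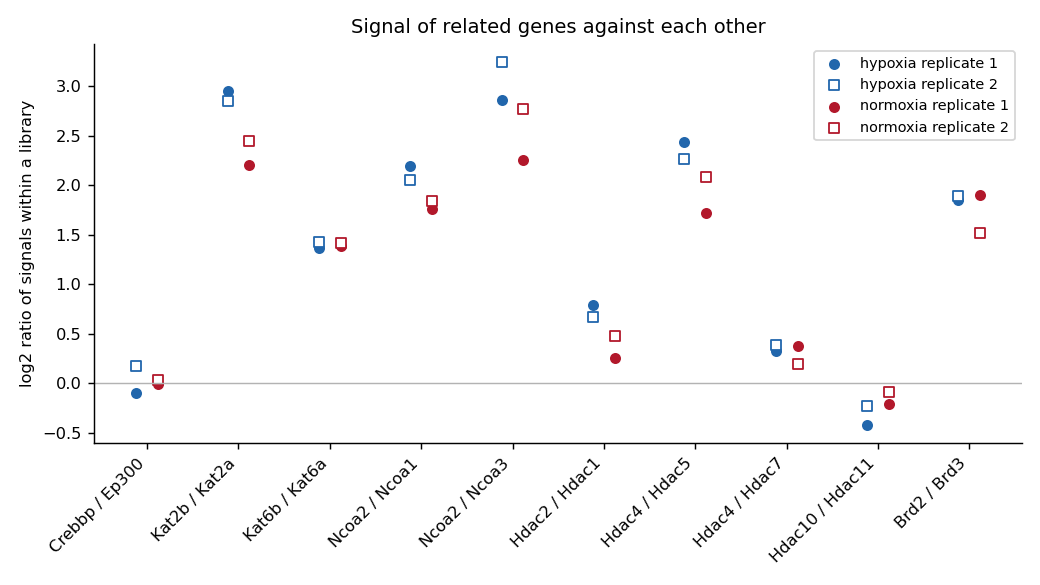
Log2 ratio of the promoter signals of 10 pairs of related members within each library, on the RLE-scaled log2(value + 1) scale and not corrected for peak width. Blue symbols are hypoxia and red symbols normoxia libraries. The ratios of Kat2b to Kat2a, Ncoa2 to Ncoa1 and Hdac2 to Hdac1 are lower in both normoxia libraries, whereas Kat6b to Kat6a is level.

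The wider complexes were examined with 3 lists of 91 genes, of which 90 had a promoter peak (Trerf1 had none). Of their 116 peaks, 35 were called lower (30.2%) and 0 higher, with a median log2 fold change of -0.40 and a median value of 102. The count was 11 of 40 for partners of writers, 17 of 50 for partners of erasers and 7 of 26 for other acetyl-lysine readers, beside 17.6% of all promoter peaks. The partner peaks were stronger (median value 102 against 67.7 over promoter peaks), and the share called lower rose with strength. They were not set beside promoter peaks of equal mean value, so no excess over such peaks is shown. At an unadjusted p under 0.05 limma had 80 lower and 0 higher. With cyclic loess 1 of the 116 peaks was called lower, and without either hypoxia library 0 were. Among partners of writers the lowest called were Kansl1, the scaffold of the Kat8-containing NSL complex, at -0.74 ± 0.13 (SE), Jade1, a scaffold of the Kat7 complex, at -0.71 ± 0.11 (SE), and Trrap, shared by the Kat5 and Kat2 complexes, at -0.66 ± 0.12 (SE). The Kansl1 values were 154 and 152 in hypoxia against 62.6 and 68.1 in normoxia.

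Partners of erasers were led by Tbl1x, a subunit of the NCoR and SMRT complexes that hold Hdac3, with values of 145 and 181 in hypoxia against 61.8 and 79.4 in normoxia and a log2 fold change of -0.72 ± 0.13 (SE) (limma, adjusted p = 3.51e-04). Sap30, a subunit of the SIN3 complex, stood at -0.71 ± 0.11 (SE) and Rcor3, of the CoREST family, at -0.70 ± 0.11 (SE). The other readers with the lowest called values were the bromodomain protein Phip at -0.62 ± 0.11 (SE), the YEATS-domain protein Mllt3 (AF9) at -0.62 ± 0.12 (SE) and the BAF ATPase Smarca2 at -0.58 ± 0.15 (SE). These peaks were picked among those called, and their groups did not overlap after scaling. Some of the named genes had further promoter peaks. Mllt3 had a weak peak at 0.29 that was not called. Smarca2 had a stronger peak at -0.52 that was called and a very weak one at -0.68 that was not. The other Kansl1 peak, at -0.59, was called. Normoxia was the lower without overlap in 95 of the 116 partner peaks and in 62.5% of promoter peaks.

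Beyond promoters, 172 peaks lay within the member genes. Their median log2 fold change was 0.14, against 0.05 over the 57035 gene body peaks of all protein-coding genes. Of these peaks 3 were called lower and 5 higher, where the background was 2.38% lower and 1.85% higher. The 3 lower peaks were all in Kat2b and within 30 kb of its start. The first (chr17:53577201-53580600) had values of 102 and 113 in hypoxia against 41.2 and 59.1 in normoxia and a log2 fold change of -0.63 ± 0.15 (SE) (limma, adjusted p = 0.0036). The second (chr17:53583601-53588700), which holds a start site of a further Kat2b transcript in the full annotation, had 300.4 and 350.2 in hypoxia against 166 and 185 in normoxia and a log2 fold change of -0.41 ± 0.10 (SE). The third (chr17:53595401-53597700) had 54.5 and 70.4 in hypoxia against 24.4 and 30.7 in normoxia and a log2 fold change of -0.68 ± 0.17 (SE). Altogether 10 of the 11 gene body peaks of Kat2b had negative fold changes, with a median of -0.32, and those more than 70 kb into the gene lay between -0.22 and -0.01.

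The 5 higher peaks lay in Kat7, Ncoa1, Hdac4 and Hdac9, whose promoter peaks were all below 0 on the same scale. In Kat7 a weak peak (chr11:95298001-95299200) had values of 6.02 and 7.48 in hypoxia against 16.9 and 14.3 in normoxia and a log2 fold change of 1.54 ± 0.28 (SE) (limma, adjusted p = 4.44e-04). In Ncoa1 the peak (chr12:4429701-4431000) had 41.0 and 43.9 in hypoxia against 50.2 and 52.1 in normoxia and a log2 fold change of 0.73 ± 0.16 (SE) (limma, adjusted p = 0.0021). Hdac9, a gene of many peaks, held 2 that were called. The stronger (chr12:34295701-34296800) had 25.5 and 30.6 in hypoxia against 33.7 and 37.7 in normoxia and a log2 fold change of 0.81 ± 0.18 (SE), and the weaker (chr12:34305401-34305800) had 2.48 and 2.72 in hypoxia against 7.50 and 7.34 in normoxia and 1.61 ± 0.38 (SE). They lie 232054 and 222704 bp downstream of the main start site in the Hdac9 promoter peak. That site is inside the gene, since the same peaks lie 620845 and 611495 bp into its 869516 bp. The Hdac4 peak (chr1:92136801-92137900) had 8.14 and 8.16 in hypoxia against 15.4 and 12.3 in normoxia and a log2 fold change of 1.13 ± 0.28 (SE). Over all their gene body peaks the median was 0.21 for the 39 of Hdac9 and 0.27 for the 27 of Hdac4. In each of the 5 peaks, which were called from the same libraries, both normoxia values also exceeded both hypoxia values as deposited. That held for 13 of the 172 member gene body peaks and for 4191 of the 57035 over all genes. After cyclic loess 4 of the 5, all but that of Hdac4, were called higher, and none of the 3 Kat2b peaks was called lower, with log2 fold changes of -0.43, -0.01 and -0.60 in the order given above. As deposited, 133 of the 172 gene body peaks (77.3%) were lower in normoxia, as were 79.7% of all gene body peaks, so the direction of the median depended on the scaling.

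**Figure D5:**
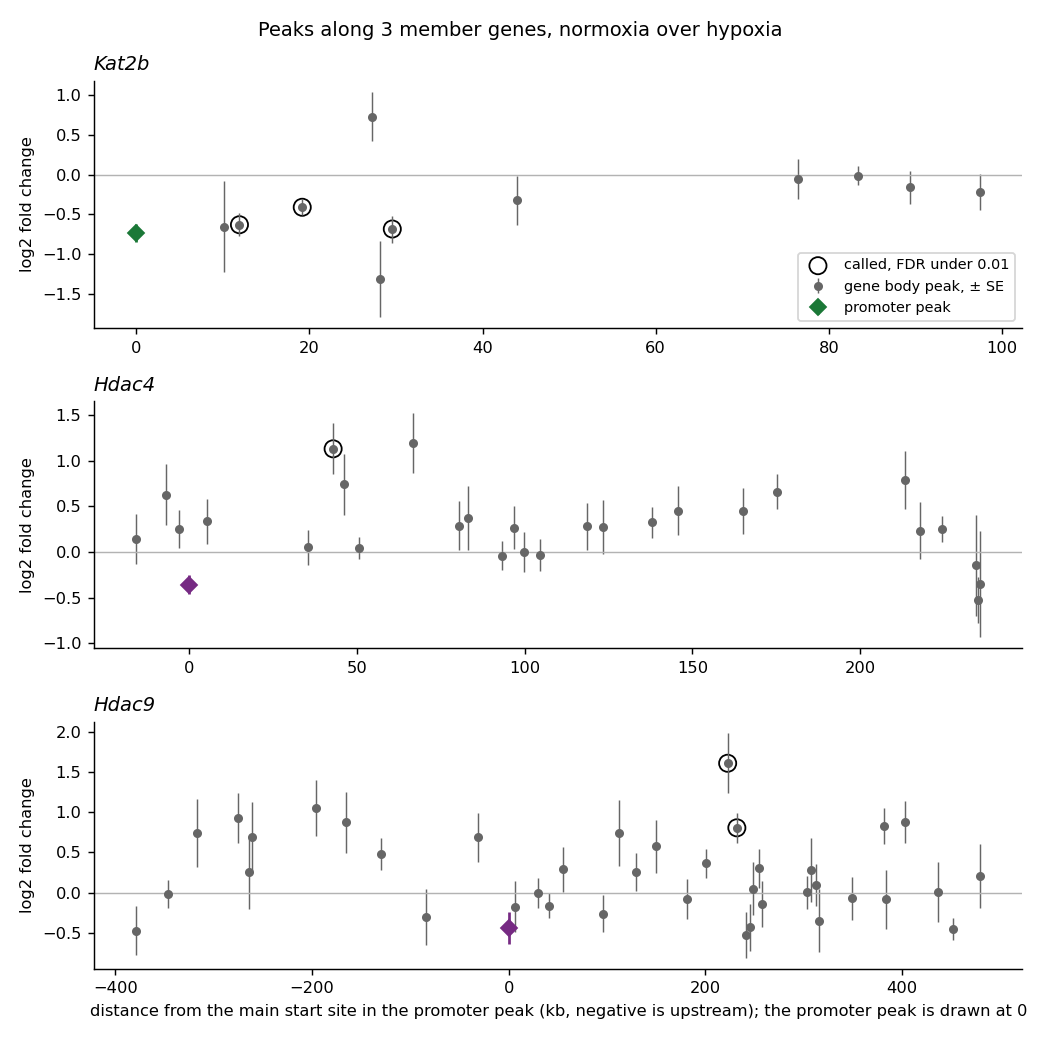
Log2 fold change (normoxia over hypoxia, RLE scaled) with its SE for each gene body peak of Kat2b, Hdac4 and Hdac9 against its distance in kb from the main start site in the promoter peak of that gene, with negative values upstream of that site. In Hdac9 the site is inside the gene. Coloured diamonds at 0 are the promoter peaks and rings mark called peaks. Kat2b peaks in the first 30 kb are mostly below 0, while the called peaks of Hdac4 and Hdac9 are above 0 and their promoter peaks below.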

How the data were processed

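ATAC-seq was measured in 4 libraries, 2 from hypoxia and 2 from normoxia. According to the study's methods and the submitters' processing notes, the authors aligned reads to mm10 with Bowtie2, removed duplicates with Picard and used chromstaR in differential mode to call peaks jointly for the 2 groups. The deposited values are a signal per peak and library, which the authors call RPKM, although peak width was not divided out. The values proved to be whole reads times a constant per library (100% of them within 0.001 reads), which gave the reads of each peak and the library totals. Whether a read could count in neighbouring bins is not known, and no counting interval was computed. The median member peak held 173 reads in the shallowest and 349 in the deepest library, and no member peak held fewer than 46 in any library. A weak peak is therefore measured less precisely than a strong peak. The number of columns left unused was 0.

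Values were divided by RLE size factors (1.13 and 1.23 in hypoxia, 0.81 and 0.89 in normoxia) and fitted as log2(value + 1) in R 4.3.3 by limma 3.58.1 (two-sided, eBayes with both trend and robust estimation). Benjamini-Hochberg adjustment ran over all 128055 peaks, with no filter on low values, and calls needed an FDR under 0.01. A log2 fold change on this scale understates the change of low peaks. edgeR 4.0.16 (quasi-likelihood) on the recovered reads was an alternative and called 7296 peaks lower and 3257 higher. The limma and edgeR functions were tested on simulated data.

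Start sites were those of protein-coding transcripts in the basic set of GENCODE M21. Sequences were read from GRCm38.p6 with pysam 0.24.0. Each member peak was matched to the 500 promoter peaks of non-members nearest in mean log2 value. The members and lists were chosen with earlier results of these data known, so no p-value over a list was computed. All members could be named, partner genes only if called and among the 3 lowest or 3 highest of their list, and sequences only for the lowest and highest fold change of each class outside chromosome 18. The MSC, blood and endothelial markers are a check of the cell type. Some of the blood markers examined are not reported here, so the blood markers named are not the whole list.

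The replicate numbers of the labels were checked for pairing, and libraries with the same number deviated from the group means with a correlation of 0.011 over all peaks (0.029 where the mean value was 5 or more). Alternatives were other scalings, pseudocounts of 0.1 and 5, a filter at a mean value of 5, a threshold of 0.05, eBayes without trend and robust estimation, edgeR, a replicate block, leaving out each library, stricter or wider definitions of a promoter peak, and 100 matched peaks.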

Additional observations from a re-analysis of the deposited data

How the results depend on the processing

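No member peak was called higher in any setting tried. The count of 5 member peaks called lower was unchanged with pseudocounts of 0.1 and 5, with 1 peak a gene and with intervals over the start site, and the 5 peaks were the same under both pseudocounts. It became 29 with values as deposited, 2 with an equal total over peaks (Ncoa2 and Kat2b), 0 after quantile normalization, 0 after cyclic loess and 0 with eBayes without trend and robust estimation, where 29293 of all peaks still had an unadjusted p under 0.05. It was 8 with a mean value of at least 5, 11 at an FDR under 0.05 and 9 with edgeR on the recovered reads. The correlation check gave no sign that the numbers mark pairs of libraries, but with 2 libraries a group it cannot exclude pairing. With the replicate number as a block, 9 member peaks were called (8468 lower and 3912 higher over all peaks). edgeR and the block each called Kat8, Hat1, Sirt6 and Brd9 besides the 5. Leaving out single libraries gave 0 to 10 member calls, with 0 without either hypoxia replicate, 4 without normoxia replicate 1 and 10 without normoxia replicate 2, where the lone library is assumed to vary like the others. With all protein-coding transcripts, a definition chosen after seeing the data, the count was 7.

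The scaling set the balance of calls over all peaks. The equal total was taken over all peaks, mitochondrial peaks included, and the share of those peaks differed between the groups. A total over nuclear peaks alone was not tried, so the equal total values do not show how nuclear peaks alone would compare. The share of calls that were lower was 72.1% as reported, 98.4% as deposited, 10.9% with an equal total, 44.7% after quantile normalization and 48.0% after cyclic loess. All peaks were called lower 30729 times as deposited, 1078 with an equal total, 972 after quantile normalization and 1681 after cyclic loess. The median log2 fold change of all peaks moved to -0.44 as deposited and 0.26 with an equal total, and stood at -0.0021 after quantile normalization and -0.0047 after cyclic loess. The member median was -0.76 as deposited, 0.0052 with an equal total, -0.016 after quantile normalization and -0.024 after cyclic loess, and lay between -0.35 and -0.24 with single libraries left out. The difference between writer and eraser medians was -0.079 after quantile normalization, -0.073 after cyclic loess, -0.015 without promoters shared with other genes, and -0.069 to 0.14 with single libraries left out. The median gap to matched peaks lay between -0.0072 and 0.068 with single libraries left out and between 0.03 and 0.04 in all other settings tried. The count of partner peaks called lower was 91 as deposited, 1 after cyclic loess, and 0 to 49 with single libraries left out. The causes of these shifts were not tested.

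Log2 fold changes of member peaks that changed sign were as follows, with mitochondrial peaks again included in the equal total. With an equal total they were Ep300 0.15, Crebbp 0.12, Kat2a 0.13, Kat5 0.064, Kat6b 0.0051, Kat7 0.077, Ncoa3 0.12, Hdac1 0.11, Hdac7 0.0052 (weaker peak 0.20), Hdac10 0.20, Hdac11 0.027, Sirt2 0.072, Sirt7 0.17, Brd2 0.027, Brd3 0.19 (weaker peak 0.19) and Brd7 0.071. After quantile normalization they were Ep300 0.13, Crebbp 0.11, Kat6b 0.085, Kat7 0.11, Naa60 0.0018, Hdac1 0.063, Hdac4 0.011, Hdac7 0.060 (weaker peak 0.10), Hdac10 0.13, Sirt2 0.11, Sirt7 0.013, Brd2 0.096, Brd3 0.18 and Brd7 0.027. After cyclic loess they were Ep300 0.12, Crebbp 0.096, Kat6b 0.11, Kat7 0.093, Hdac1 0.055, Hdac4 0.022, Hdac7 0.059 (weaker peak 0.098), Hdac10 0.12, Sirt2 0.10, Sirt7 0.027, Brd2 0.21, Brd3 0.17 (weaker peak 0.0065) and Brd7 0.025. Hdac5 was at -0.37 as deposited. With single libraries left out, Ep300 ranged from -0.32 to 0.027, Ncoa3 from -0.38 to 0.041, Hdac5 from -0.057 to 0.26, Hdac10 from -0.16 to 0.0028 and Brd3 from -0.23 to 0.039.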
